A study of Homo sapiens with 32 samples.

Results

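The genes described here are 3 forkhead box O (FOXO) transcription factors, FOXO1, FOXO3 and FOXO4, together with CCNG2, SESN1, SESN3, PIK3IP1, BCL6, KLF6 and BCL2L11, which are known as genes that FOXO factors switch on. They were found by symbol among the protein-coding rows of both count tables, and all 10 were present among 19815 protein-coding genes. CCNG2 was chosen because its mRNA rose with PP242 in these same libraries, so its PP242 values are given as a description and were not tested. The other 9 were named as FOXO factors or targets. RNA-Seq was carried out on 32 libraries from 2 breast cell lines, 16 from each. MCF10A is an immortalised, non-tumourigenic mammary epithelial line and was grown in serum with added EGF, insulin, hydrocortisone and cholera toxin. MDA-MB-231 comes from a triple-negative breast carcinoma and was grown in serum without these additions. Cells were kept in normoxia (N) or in 0.5% O2 for 24 hours (H), and PP242, at 2.5 µM for 3 hours, was given in normoxia (NPP) or in hypoxia (HPP). Cells without PP242 received its solvent, DMSO, per the study's methods. Total mRNA (T) and polysomal mRNA (P), the mRNA that sediments with several ribosomes in a sucrose gradient, made 8 groups per line with 2 biological replicates each. Each total library shares a number in its title with 1 polysomal library of the same condition, so the fractions compared below may come from the same cultures, and the tests between fractions treat them as separate unless a culture block is named.

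FOXO factors are held in check by AKT, which is activated downstream of PI3-kinase by insulin and growth factors and phosphorylated by mTOR complex 2. AKT phosphorylates FOXO proteins, which then bind 14-3-3 proteins and leave the nucleus. When AKT activity falls they return to the nucleus and bind a forkhead core sequence near genes that slow the cell cycle, limit growth signalling or promote apoptosis. PP242 is an ATP-competitive inhibitor of mTOR that acts on both of its complexes. This control acts on the proteins, and the libraries measure only mRNA.

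The values are gene counts that the authors estimated with RSEM, shown as CPM (counts scaled to library size) after TMM scaling within each line. Library totals ranged from 18340916 to 46032327 counts. Marker genes were compared with the labels first. CA9, a target of hypoxia-inducible factor, stood at 7.72 to 26.9 CPM in normoxic and 522 to 1356 CPM in hypoxic MCF10A libraries, and at no more than 1.02 CPM against at least 13.0 CPM in MDA-MB-231. The normoxic and hypoxic ranges of NDRG1, ANKRD37 and EGLN3 did not overlap either in both lines. The share of polysomal counts from ribosomal protein genes, whose translation depends on mTOR, was 14.4% and 9.0% in the MCF10A normoxic libraries and 3.83% and 4.10% with PP242, and 10.2% and 9.19% against 4.20% and 4.55% in MDA-MB-231. The basal keratin KRT5 had a median of 1919 CPM over the MCF10A libraries and did not exceed 0.284 CPM in MDA-MB-231. The label was not borne out by every epithelial marker, because CDH1 and TP63 did not exceed 0.361 and 0.226 CPM in MCF10A while KRT14, KRT17 and ITGB4 were abundant (medians 1543, 221 and 513 CPM). Of the markers listed for MDA-MB-231, VIM and ZEB1 were present (medians 3973 and 61.9 CPM), whereas SPARC and CD70 did not exceed 0.796 and 0.0568 CPM. The medians in MCF10A were 2619.8 CPM for VIM, 18.8 for ZEB1, 136 for SPARC and 0.887 for CD70. SPARC and CD70 were thus lower in the line for which they were listed. Among 8 markers of fibroblasts, endothelium and immune cells, COL3A1, CDH5, PTPRC and CD3E stayed at or under 1.14 CPM in both lines, CD68 and COL1A1 were detected in both, PECAM1 did not exceed 2.17 CPM, and DCN had a median of 110.04 CPM in MCF10A.

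Some MCF10A libraries stood apart from their replicate. In NPP total mRNA, ribosomal protein genes took 9.97% of the counts of replicate 1 and 17.8% of those of replicate 2. The log2 difference between these 2 libraries had an SD of 1.19 over 13068 genes, against 0.396 to 0.886 in the other 7 MCF10A groups and 0.367 to 0.521 in MDA-MB-231. Its rank correlation with transcript length across genes was −0.513. Longer mRNAs tended to be lower in replicate 2, and the 9 genes here that were detected in these 2 libraries were all lower in it. The replicates of 4 other MCF10A groups also differed with length, with rank correlations of −0.489 in HPP and −0.476 in H total mRNA, and of 0.512 in N and 0.465 in H polysomal mRNA. The normoxic polysomal libraries, against which polysomal changes are set, thus differed with length in the opposite direction. A fit with a length offset for each library, added after these differences were seen, changed the number of members called by over 1.5 times in 4 comparisons, H against N and NPP against N in MCF10A polysomal mRNA and NPP against N in total mRNA of both lines, each time upwards. In it the polysomal call of BCL2L11 described below was lost. The common coefficient of variation between biological replicates, as edgeR estimates it, reached 0.325 for MCF10A against 0.150 for MDA-MB-231. Equal changes therefore passed less readily in MCF10A. The labels call the replicates biological and say no more on how they were grown.

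To show where the forkhead core could be read in these genes, the 7 bases GTAAACA were searched on both strands of RefSeq promoters (GRCh38.p14, 250 bases before to 50 bases after each start), in which all 10 genes were found. The core lies in 3 of the 17 promoters listed for these genes, each of a different gene, and in 1202 of 35116 promoters (3.42%) over the genome. The 3 stretches are printed in the direction of the gene, with the core in capitals, because their genes, BCL2L11, PIK3IP1 and FOXO4, are followed below.
BCL2L11, chr2:111120680-111120708, plus strand, core from 223 bases before the start: gagttactccgGTAAACAcgccagggacg
PIK3IP1, chr22:31292455-31292483, minus strand, core on the opposite strand from base 17 after the start: taaagagaggcTGTTTACcagaacagcat
FOXO4, chrX:71095863-71095891, plus strand, core from base 24 after the start: cccggcgagtgGTAAACAgagacgtcagg
The letters were found in 1 of the 2 promoters listed for PIK3IP1. They do not occur in the windows of FOXO1, FOXO3, CCNG2, SESN1, SESN3, BCL6 or KLF6, which says nothing about binding elsewhere. A match is a description of the sequence and not a bound site.

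In normoxia the 3 FOXO mRNAs were present in both lines but in different order. Per kilobase of annotated exon, FOXO1 stood at 8.39 and 8.11 CPM in the 2 MCF10A total libraries and at 1.09 and 0.448 CPM in MDA-MB-231. FOXO3 stood at 4.17 and 3.80 CPM per kilobase for MCF10A and 1.95 and 2.63 for MDA-MB-231. FOXO4 stood at 0.482 and 0.617 for MCF10A and 1.48 and 1.33 for MDA-MB-231. FOXO1 was thus the most abundant of the 3 in MCF10A and the least abundant, below FOXO4, in MDA-MB-231. Among the targets, KLF6, a zinc finger transcription factor, was the most abundant in both lines (18.4 and 16 CPM per kilobase for MCF10A and 18.4 and 18.2 for MDA-MB-231). CCNG2, an unconventional cyclin that slows the cell cycle, followed with 3.56 and 2.91 for MCF10A and 6.57 and 4.94 for MDA-MB-231. Using the longest transcript in place of all exons gave means of 8.50 CPM per kilobase for FOXO1 and 4.38 for CCNG2 in MCF10A, and left CCNG2 above FOXO3. With all exons the order of CCNG2 and FOXO3 in MCF10A was the opposite. In MDA-MB-231, with all exons, BCL6 (2.36 and 2.31), BCL2L11 (2.44 and 2.19) and FOXO3 followed CCNG2. They differed from each other by less than the spread between the 2 FOXO3 libraries. With the longest transcript, BCL6 (3.36 and 3.28) and BCL2L11 (3.18 and 2.86) both lay above FOXO3 (2.05 and 2.76) there. With all exons SESN1 stood at 1.80 and 1.91 for MCF10A and 1.34 and 1.2 for MDA-MB-231, and PIK3IP1, at 0.137 and 0.105 and 0.273 and 0.299, was the lowest of the genes detected in both lines.

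**Figure D1:**
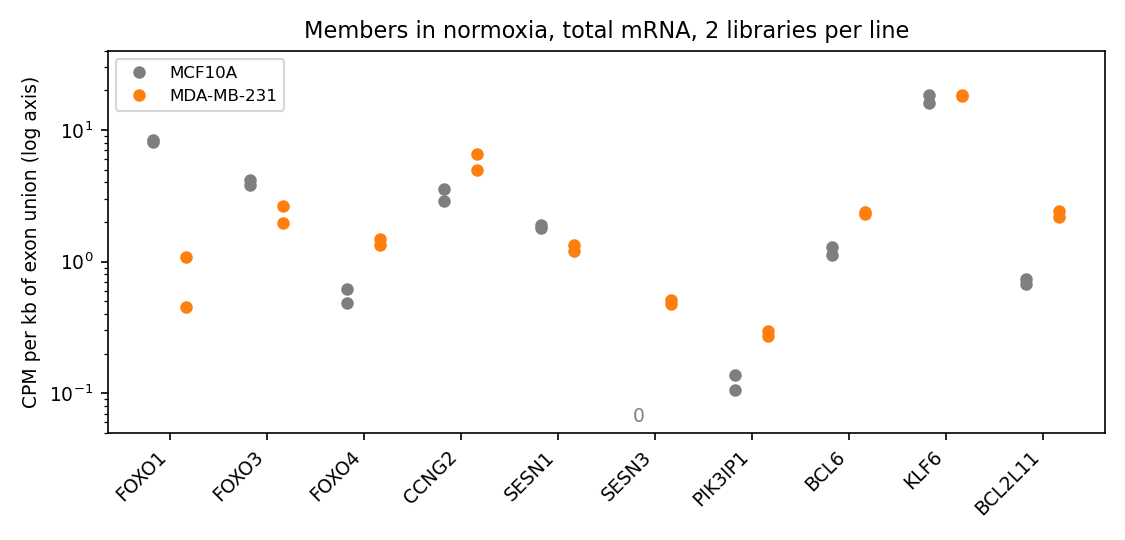
CPM per kilobase of exon (log axis) of the 10 genes in normoxic total mRNA, 1 point per library, 2 libraries per line. FOXO1 lies higher in MCF10A, BCL2L11 lies higher in MDA-MB-231, and SESN3 is at 0 in both MCF10A libraries.

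Between the lines, FOXO1 was lower in MDA-MB-231 than in MCF10A (log2FC −3.86 ± 0.52, adjusted p = 3.58e-06), as were FOXO3 (log2FC −1.27 ± 0.46, adjusted p = 0.0318) and SESN1 (log2FC −1.01 ± 0.21, adjusted p = 0.000516), by edgeR's quasi-likelihood test in a fit of all 32 libraries. SESN1 and SESN3 encode sestrins, stress proteins that restrain mTOR complex 1. BCL2L11, which encodes the pro-apoptotic BH3-only protein BIM, was higher in MDA-MB-231 (log2FC 1.25 ± 0.41, adjusted p = 0.0193). SESN3 was at 0 in both normoxic total libraries of MCF10A and at 5.45 and 5.00 CPM in MDA-MB-231, at least 45.5-fold higher against a floor of 3 counts per library. Over the 14298 genes of that fit, 20.3% were called higher and 20.5% lower in MDA-MB-231. SESN3 entered this fit only through MDA-MB-231, the line in which it is high, so its call is not counted here, and of the other 9 members 1 was called higher and 3 lower. The FOXO3 call was lost without any 1 of the 4 libraries compared (log2FC −1.47 to −1.11, adjusted p = 0.0725 to 0.171). That of BCL2L11 was lost without either MCF10A library or without MDA-MB-231 replicate 1 (log2FC over the 4 omissions 1.12 to 1.35). In GENCODE v44, BCL2L11 shares 727 exon bases with MIR4435-2HG, a lncRNA on the opposite strand. That lncRNA holds 52046 counts over all libraries against 11608 for BCL2L11. The library kit does not mark strand, so strand could not separate their reads there. How well RSEM divided these reads was not tested.

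The 4 comparisons below ask what hypoxia did, what PP242 did in normoxia and in hypoxia, and how both together differed from normoxia. Comparisons with normoxia share the normoxic libraries. In MCF10A 9 of the 10 genes passed the filter on low counts, which left out SESN3, and in MDA-MB-231 all 10 passed. CCNG2 is outside the counts wherever PP242 is compared, which leaves 8 and 9 genes. Calls required an adjusted p under 0.05 over 13124 genes in MCF10A or 13510 in MDA-MB-231.

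With hypoxia alone, 0 of 9 genes were called in MCF10A total mRNA by edgeR, beside 1.39% of all tested genes higher and 0.145% lower (2 of the 9 had an unadjusted p under 0.05, and DESeq2 called 2), and PIK3IP1 alone was called in polysomal mRNA, beside 1.33% of all tested genes higher and 0.16% lower. In MDA-MB-231, 0 of 10 were called in total mRNA, beside 0.977% of all tested genes higher and 0.289% lower (3 at an unadjusted p under 0.05, 1 by DESeq2), and 0 in polysomal mRNA, beside 1.78% of all tested genes higher and 0.511% lower (4 at an unadjusted p under 0.05, 0 by DESeq2). PP242 in normoxia gave 0 calls in total mRNA of either line. The background there was 0.343% of all tested genes higher and 0.305% lower in MCF10A (3 of 8 genes at an unadjusted p under 0.05, 2 by DESeq2) and 0.377% of all tested genes higher and 0.178% lower in MDA-MB-231 (4 of 9 and 3). Same-numbered MCF10A total libraries deviated together in 6 of 6 pairs of groups, and with the replicate number as a block within each fraction, CCNG2 and PIK3IP1 were called there with hypoxia (1.43 ± 0.30, adjusted p = 0.0263 and 2.95 ± 0.69, adjusted p = 0.0442) and BCL6 with PP242 (1.11 ± 0.24, adjusted p = 0.0482). With that block KLF6 was also called for PP242 in hypoxia (1.75 ± 0.33, adjusted p = 0.00864) and SESN1, lower, for HPP against N (−0.79 ± 0.22, adjusted p = 0.0241). In polysomal mRNA, 1 of 8 rose in MCF10A (BCL6), beside 0.472% of all tested genes higher and 0.351% lower, and 3 of 9 in MDA-MB-231 (SESN3, PIK3IP1 and KLF6), beside 0.762% of all tested genes higher and 1.19% lower. PP242 in hypoxia, compared with hypoxia alone, raised BCL6 and lowered SESN1 in MCF10A total mRNA, beside 1.33% of all tested genes higher and 2.42% lower. It raised BCL6 and KLF6 in MCF10A polysomal mRNA, beside 2.63% of all tested genes higher and 3.87% lower. In MDA-MB-231 it raised SESN3, PIK3IP1 and KLF6 in total mRNA, beside 1.7% of all tested genes higher and 2.08% lower, and these 3 with BCL2L11 in polysomal mRNA, beside 4.86% of all tested genes higher and 6.62% lower.

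With hypoxia and PP242 together, 2 of 8 genes rose in both fractions of MCF10A, BCL6 and KLF6, where 7.43% of all tested genes higher and 7.47% lower were called in total and 10.2% of all tested genes higher and 11.9% lower in polysomal mRNA. In MDA-MB-231, 4 of 9 rose in total mRNA (SESN3, PIK3IP1, BCL6 and KLF6), beside 6.31% of all tested genes higher and 6.91% lower, and 5 of 9 in polysomal mRNA (these and FOXO4), beside 9.71% of all tested genes higher and 9.73% lower. The median log2FC of the tested genes in polysomal mRNA was 1.24 for MCF10A and 0.90 for MDA-MB-231, and over all genes it was −0.04 and 0.01. The members were chosen with earlier results of these libraries known, and these shares are a description.

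**Figure D2:**
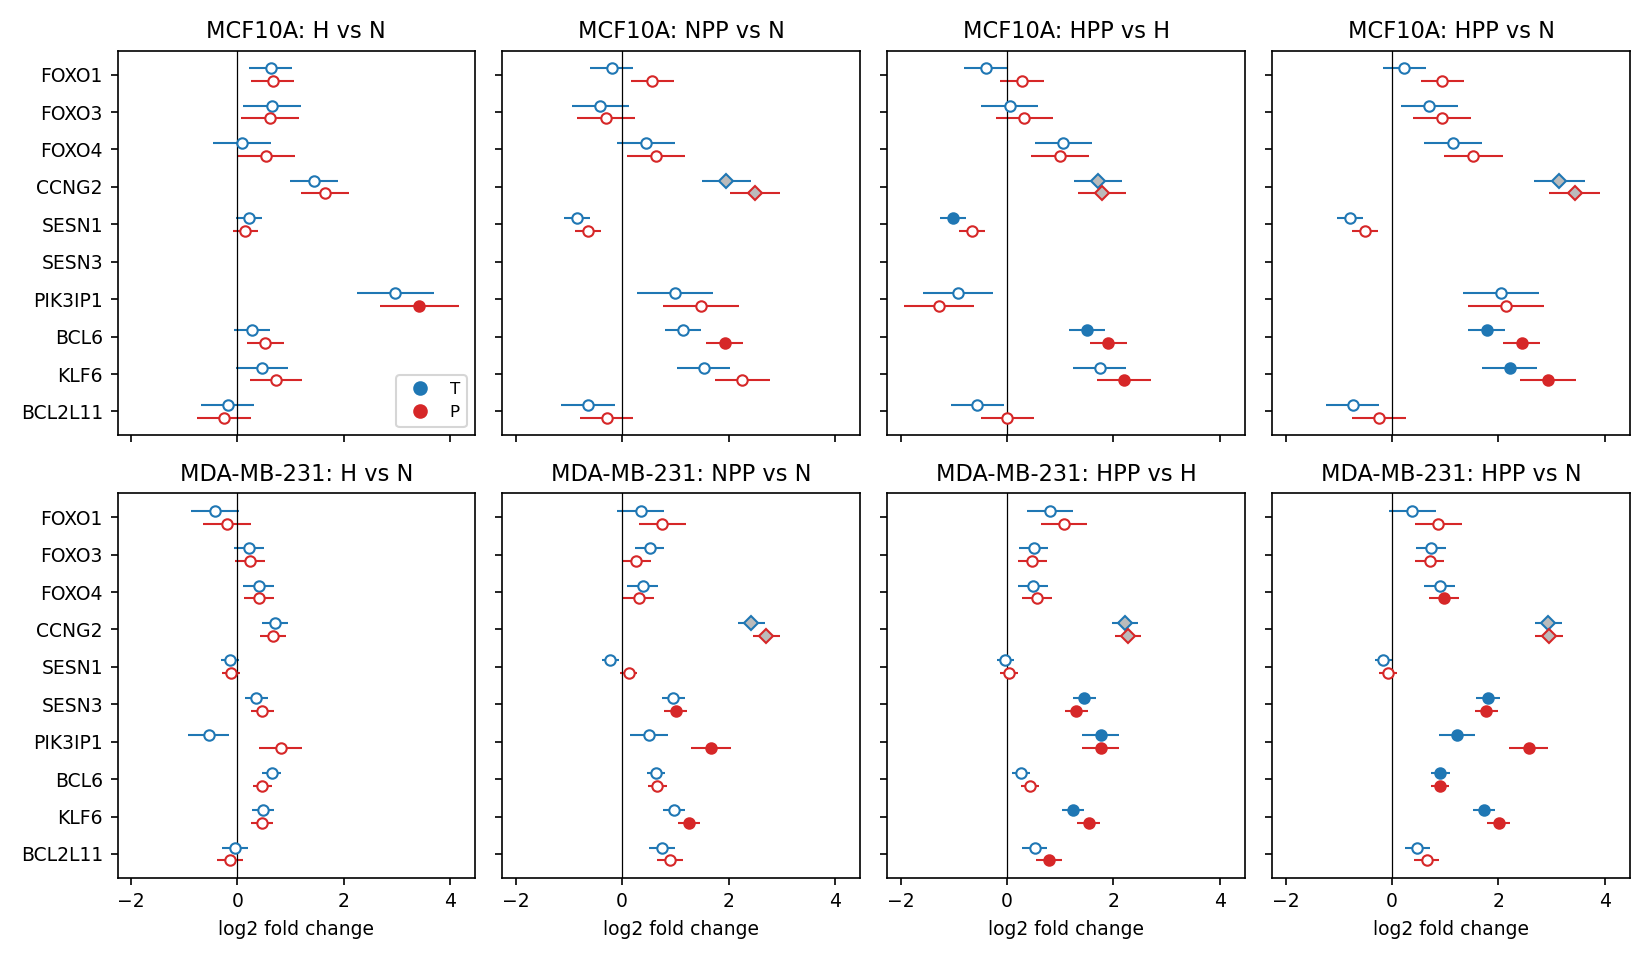
Log2 fold change (points) with its standard error (bars) of each gene in 4 comparisons, in total (blue) and polysomal (red) mRNA of MCF10A (top) and MDA-MB-231 (bottom), fitted over 16 libraries per line. Filled circles passed an adjusted p of 0.05, open circles did not, and grey diamonds mark CCNG2 where it was chosen on the comparison and not tested. KLF6 and BCL6 in MCF10A, and KLF6, SESN3 and PIK3IP1 in MDA-MB-231, carry most of the filled circles.

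The mean level of CCNG2 mRNA was lowest in normoxia and highest in hypoxia with PP242 in both lines and both fractions. In MCF10A total mRNA it stood at 26.4 and 21.6 CPM in N, 71.8 and 58.0 in H, 137 and 48.6 in NPP and 282 and 142 in HPP. In MCF10A polysomal mRNA it stood at 17.5 and 16.9 CPM, 58.6 and 49.4, 99 and 95.5 and 229.8 and 142 in the same order. The libraries of each condition lay above both normoxic libraries of their fraction, and NPP replicate 2 of total mRNA, the library furthest from its replicate, lay below both H libraries. In MDA-MB-231 total mRNA CCNG2 stood at 48.8 and 36.7 CPM in N, 57.9 and 83.1 in H, 215 and 244 in NPP and 369 and 286 in HPP. The polysomal values there were 36.3 and 23.8 CPM, 38.8 and 56.8, 182 and 210.4 and 222 and 241. All 8 MDA-MB-231 libraries with PP242 lay above all 8 without it.

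As a description of the values it was chosen on, the log2FC of CCNG2 with PP242 in normoxia was 1.96 ± 0.46 in total and 2.50 ± 0.47 in polysomal mRNA of MCF10A, and 2.43 ± 0.25 and 2.71 ± 0.26 in MDA-MB-231. Without NPP replicate 2 the MCF10A total value was 2.52. PP242 added to hypoxia gave 1.71 ± 0.45 in total and 1.78 ± 0.45 in polysomal mRNA of MCF10A, and 2.22 ± 0.25 and 2.27 ± 0.25 for MDA-MB-231. Against normoxia, HPP gave 3.14 ± 0.48 and 3.43 ± 0.49 for MCF10A and 2.94 ± 0.26 and 2.95 ± 0.26 for MDA-MB-231, which is 10.8-fold and 7.72-fold in polysomal mRNA. Hypoxia alone, which the choice did not use, did not pass the test, with 1.44 ± 0.45 (adjusted p = 0.197) in total and 1.65 ± 0.45 (adjusted p = 0.116) in polysomal mRNA of MCF10A. In MDA-MB-231 the values were 0.72 ± 0.24 (adjusted p = 0.202) and 0.67 ± 0.24 (adjusted p = 0.172). DESeq2 called CCNG2 in both fractions of MCF10A and in neither of MDA-MB-231. In edgeR with the replicate block within each fraction, it was called in MCF10A total mRNA (1.43 ± 0.30, adjusted p = 0.0263). The length offset, added after seeing the data, gave a call in MCF10A polysomal mRNA (1.63 ± 0.35, adjusted p = 0.0283). In total mRNA that offset gave 1.44 ± 0.34 (adjusted p = 0.0506), which did not pass.

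**Figure D3:**
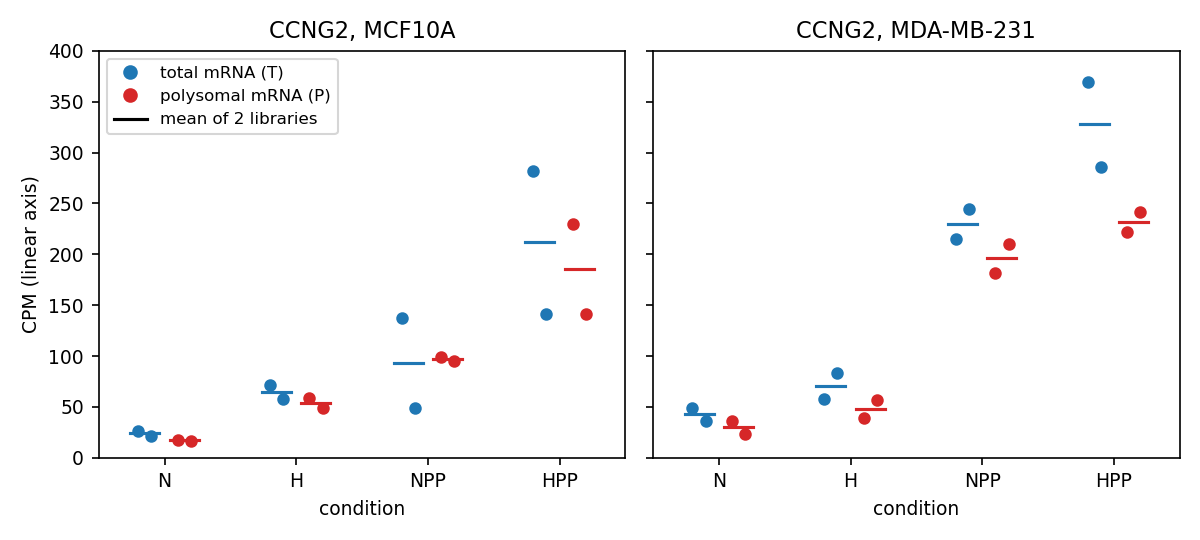
CCNG2 CPM (linear axis from 0) by condition in MCF10A and MDA-MB-231, 1 point per library, with a line at the mean of the 2 libraries of a group. In MDA-MB-231 every library with PP242 lies above every library without it, and in MCF10A the NPP total libraries lie at 137 and 48.6.

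The mRNAs of the FOXO factors themselves passed edgeR's test, fitted without a replicate block, in 1 comparison. Of 24 tests (3 genes, 4 comparisons, 2 fractions) in each line, 0 passed in MCF10A, against 1 in MDA-MB-231. That was FOXO4 in polysomal mRNA with hypoxia and PP242, at 14.0 and 9.46 CPM against 6.88 and 5.07 in normoxia (log2FC 0.98 ± 0.29, adjusted p = 0.0271). The HPP libraries lay above the normoxic ones, and the call was lost without HPP replicate 1 or normoxic replicate 2 (log2FC over the 4 omissions 0.67 to 1.28, adjusted p = 0.0304 to 0.248). In total mRNA the same comparison gave 0.89 ± 0.29 (adjusted p = 0.0564), and in MCF10A FOXO4 gave 1.53 ± 0.55 (adjusted p = 0.0673) in polysomal mRNA, from 0.768 and 2.50 to 4.77 and 4.83 CPM. DESeq2, and edgeR without the low-count filter, called FOXO4 in both of these and FOXO3 in MDA-MB-231 total mRNA with both treatments. The fit without the filter also called FOXO1 and FOXO3 in MDA-MB-231 polysomal mRNA. With the replicate block within each fraction, FOXO1, FOXO3 and FOXO4 passed in MCF10A polysomal mRNA for HPP against N. With either replicate block, FOXO1 passed in MDA-MB-231 polysomal mRNA for HPP against H and against N. FOXO4 passed there for HPP against H in polysomal mRNA and against N in total mRNA. The number of FOXO calls thus depends on the settings. FOXO3 in the 16 MDA-MB-231 libraries ranged from 15.0 to 42.2 CPM, and its log2FC with hypoxia and PP242 was 0.73 ± 0.28 (adjusted p = 0.0978) in total and 0.71 ± 0.27 (adjusted p = 0.0822) in polysomal mRNA. FOXO1 was low there, with 2.67 to 8.30 CPM, and replicate 1 lay above replicate 2 in all 8 groups. In MCF10A, FOXO1 stood at 60.2 and 25.7 CPM and FOXO3 at 34.7 and 11.2 CPM in the 2 NPP total libraries, the second being the library furthest from its replicate. Without it, the NPP log2FC in total mRNA moved from −0.19 ± 0.40 to 0.29 for FOXO1 and from −0.41 ± 0.54 to 0.18 for FOXO3. Reads of the near-identical pseudogene FOXO3B amounted to 1.36% to 7.31% of the FOXO3 counts of a library.

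KLF6 rose with PP242 in both lines. In MCF10A polysomal mRNA it stood at 53.9 and 103.6 CPM in N, 102.4 and 159 in H, 369.7 and 385 in NPP and 450.5 and 755 in HPP. In total mRNA the values were 113 and 98.2 CPM, 171 and 121, 462 and 149.6 and 556 and 419. The NPP and HPP libraries lay above all N and H libraries of their fraction except NPP total replicate 2, which lay within the H range. HPP exceeded N by a log2FC of 2.21 ± 0.51 (adjusted p = 0.0141) in total and 2.94 ± 0.53 (adjusted p = 0.00292) in polysomal mRNA, and exceeded H by 2.20 ± 0.51 (adjusted p = 0.0270) in polysomal mRNA. The polysomal HPP call against N held without each of the 4 libraries in turn (adjusted p = 0.00600 to 0.0316), that in total mRNA was lost without either normoxic library (log2FC over the 4 omissions 2.08 to 2.40), and that against H was lost without either H library or without HPP replicate 2 (1.78 to 2.56) and in a fit of only the libraries compared. PP242 in normoxia gave 2.26 ± 0.51 (adjusted p = 0.0665) in polysomal mRNA and 1.53 ± 0.50 (adjusted p = 0.285) in total mRNA, or 2.13 in total mRNA without NPP replicate 2.

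In MDA-MB-231 total mRNA KLF6 stood at 113 and 111.6 CPM in N, 163 and 151 in H, 205 and 235 in NPP and 379 and 366 in HPP, with no overlap between any 2 conditions. In polysomal mRNA it stood at 84.8 and 124 CPM, 147 and 142, 188 and 308 and 421 and 415. HPP exceeded N by 1.73 ± 0.21 (adjusted p = 0.000212) in total and 2.00 ± 0.21 (adjusted p = 2.85e-05) in polysomal mRNA, and exceeded H by 1.25 ± 0.21 (adjusted p = 0.00751) and 1.53 ± 0.21 (adjusted p = 0.000386). PP242 in normoxia raised the polysomal level by 1.25 ± 0.21 (adjusted p = 0.00414), a call lost in a fit of only the libraries compared and without NPP replicate 2 (log2FC over the 4 omissions 0.85 to 1.57). The call against H in total mRNA was lost without H replicate 2 or HPP replicate 2 (1.21 to 1.37), and the other 3 held without each library in turn. Total mRNA with PP242 in normoxia fell just short, at 0.97 ± 0.21 (adjusted p = 0.0531).

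BCL6, a transcriptional repressor, rose from a low level. In MCF10A total mRNA it stood at 7.68 and 6.72 CPM in N, 9.89 and 7.62 in H, 19.4 and 12.4 in NPP and 28.5 and 21.2 in HPP, and in polysomal mRNA at 3.91 and 6.83 CPM, 6.46 and 9.08, 21.1 and 20.0 and 24.6 and 33.7. All 8 libraries with PP242 lay above all 8 without it. In polysomal mRNA the rise passed with PP242 in normoxia (1.93 ± 0.35, adjusted p = 0.0291), with PP242 in hypoxia (1.90 ± 0.35, adjusted p = 0.0104) and with HPP against N (2.43 ± 0.36, adjusted p = 0.00100). In total mRNA it passed with PP242 in hypoxia (1.50 ± 0.35, adjusted p = 0.0348) and with HPP against N (1.78 ± 0.35, adjusted p = 0.00603), and with PP242 in normoxia it was 1.14 ± 0.34 (adjusted p = 0.223), or 1.43 without NPP replicate 2. The polysomal HPP call against N held without each library in turn. The NPP call and that for PP242 in hypoxia in total mRNA were lost without any 1 of their 4 libraries (log2FC 1.58 to 2.39 and 1.31 to 1.70). Both were also lost in a fit of only the libraries compared, and the second with all gene classes. The polysomal call in hypoxia was lost without H replicate 1 or HPP replicate 2 (1.66 to 2.17) and in a fit of only the libraries compared, and the total HPP call without either normoxic library (1.65 to 1.99).

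In MDA-MB-231, BCL6 stood at 14.0 and 13.7 CPM in total and 12.9 and 13.5 CPM in polysomal mRNA in normoxia. In HPP it stood at 29.4 and 22.5 CPM in total and 26.7 and 22.7 CPM in polysomal mRNA, a log2FC of 0.90 ± 0.18 (adjusted p = 0.00488) and 0.90 ± 0.18 (adjusted p = 0.00316). The total call was lost without HPP replicate 1 (0.75 to 1.15). The libraries of all 3 treated conditions lay above the normoxic ones in both fractions. Hypoxia alone gave 0.65 ± 0.18 (adjusted p = 0.107) in total mRNA and PP242 alone 0.64 ± 0.18 (adjusted p = 0.157), neither of which passed.

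**Figure D4:**
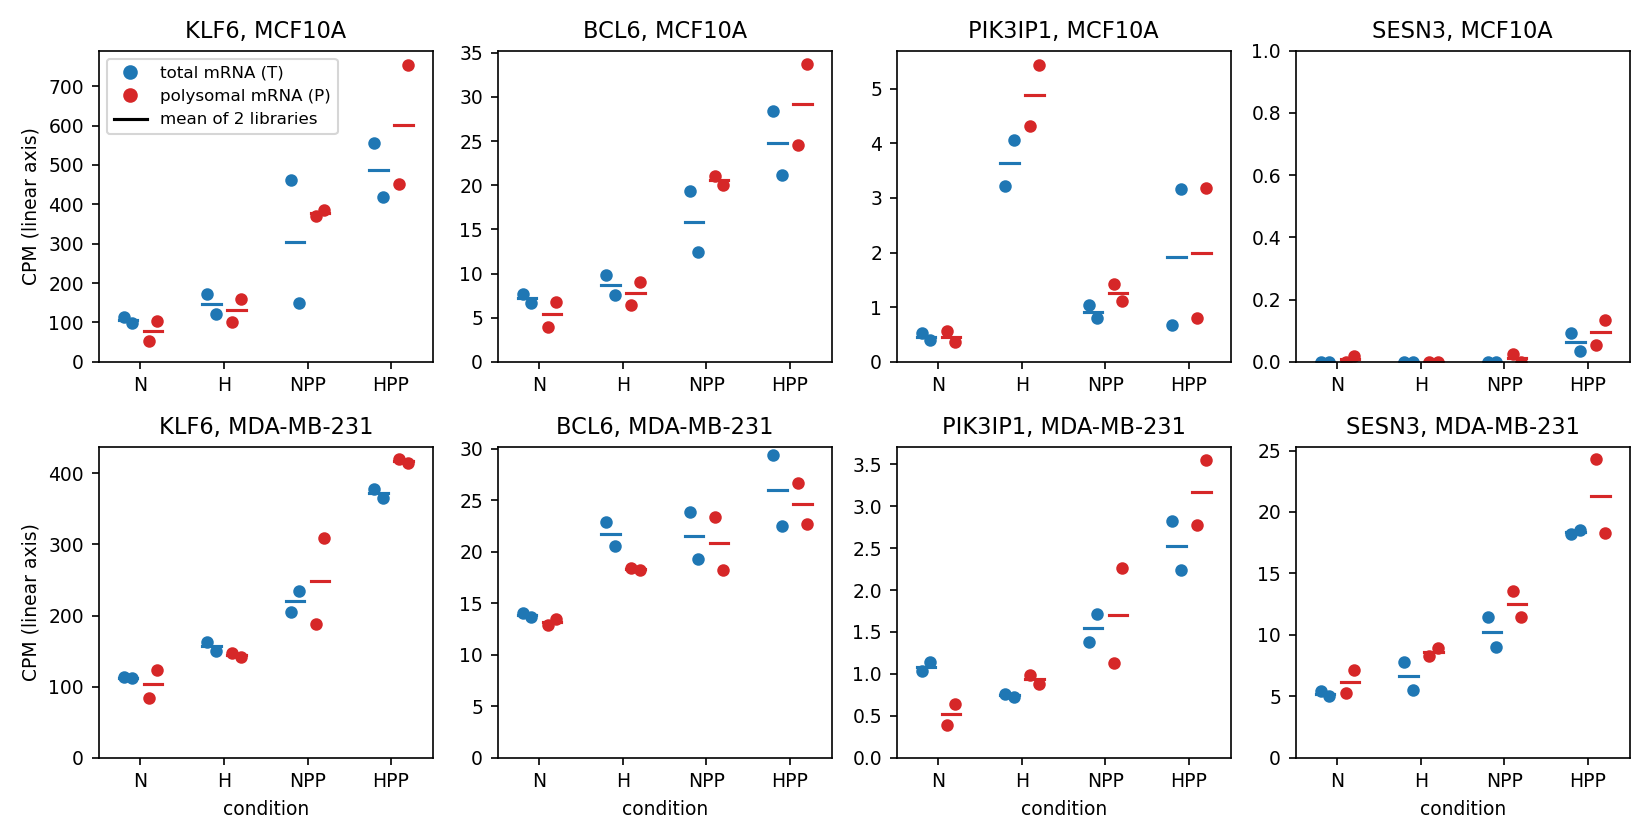
KLF6, BCL6, PIK3IP1 and SESN3 CPM (linear axes from 0, each panel on its own scale) by condition in MCF10A (top) and MDA-MB-231 (bottom), 1 point per library, with a line at the mean of the 2 libraries of a group. KLF6 and, in MCF10A, BCL6 are higher with PP242 except for KLF6 in 1 MCF10A NPP total library, BCL6 in MDA-MB-231 total mRNA is as high in H as in NPP, PIK3IP1 peaks in hypoxia in MCF10A and in HPP in MDA-MB-231, and SESN3 is near 0 in MCF10A.

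PIK3IP1 encodes a membrane protein that inhibits PI3-kinase. In MCF10A polysomal mRNA it stood at 0.559 and 0.361 CPM in N, 4.32 and 5.44 in H, 1.42 and 1.11 in NPP and 0.805 and 3.18 in HPP. The H libraries were the highest, and the 2 HPP libraries lay far apart. Hypoxia raised the polysomal level (log2FC 3.42 ± 0.74, adjusted p = 0.0457), a call lost without any 1 of the 4 libraries (log2FC 3.12 to 3.82, adjusted p = 0.111 to 0.249), with RLE scaling, with all gene classes and in a fit of only the libraries compared. In total mRNA the values were 0.522 and 0.400 CPM in N and 3.21 and 4.06 in H (log2FC 2.97 ± 0.72, adjusted p = 0.0802). HPP total mRNA stood at 0.680 and 3.16 CPM, with replicate 1 near normoxia and replicate 2 near hypoxia, and the log2FC of HPP against N was 2.05 ± 0.71 (adjusted p = 0.0774), and from 0.56 to 2.86 when 1 of the 4 libraries was left out.

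In MDA-MB-231, PIK3IP1 was highest with hypoxia and PP242. Total mRNA stood at 1.04 and 1.14 CPM in N, 0.760 and 0.729 in H, 1.38 and 1.72 in NPP and 2.82 and 2.24 in HPP. Polysomal mRNA stood at 0.392 and 0.646 CPM, 0.991 and 0.882, 1.13 and 2.27 and 2.78 and 3.55. The total H libraries lay below the normoxic ones, whereas the polysomal H libraries lay above them. HPP exceeded H by 1.76 ± 0.35 (adjusted p = 0.0166) in total and 1.76 ± 0.34 (adjusted p = 0.00490) in polysomal mRNA, and exceeded N by 1.22 ± 0.35 (adjusted p = 0.0325) and 2.57 ± 0.37 (adjusted p = 0.000327). PP242 in normoxia raised the polysomal level by 1.67 ± 0.38 (adjusted p = 0.0331) and gave 0.51 ± 0.36 (adjusted p = 0.728) in total mRNA. Both polysomal HPP calls held without each library in turn. The total call against N was lost without any 1 of its 4 libraries (1.09 to 1.44), that against H without any but H replicate 1 (1.61 to 1.96), and the NPP call without any but NPP replicate 1 (1.09 to 2.09). These values rest on few counts, 1986 over the 32 libraries.

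SESN3 was measured in MDA-MB-231 alone, since 10 of 16 MCF10A libraries held 0 counts and all 16 held 14 counts together. In MDA-MB-231 total mRNA it stood at 5.45 and 5.00 CPM in N, 7.82 and 5.56 in H, 11.5 and 8.98 in NPP and 18.2 and 18.6 in HPP. In polysomal mRNA it stood at 5.27 and 7.14 CPM, 8.31 and 8.96, 13.6 and 11.5 and 24.3 and 18.3. In both fractions the HPP libraries lay above all others, and the NPP libraries above all N and H libraries. HPP exceeded N by 1.81 ± 0.22 (adjusted p = 0.000223) in total and 1.77 ± 0.22 (adjusted p = 8.35e-05) in polysomal mRNA, and exceeded H by 1.45 ± 0.22 (adjusted p = 0.00443) and 1.30 ± 0.21 (adjusted p = 0.00151). PP242 in normoxia raised the polysomal level by 1.01 ± 0.22 (adjusted p = 0.0256), with 0.97 ± 0.22 (adjusted p = 0.0775) in total mRNA, and hypoxia alone gave 0.36 ± 0.22 (adjusted p = 0.559) and 0.47 ± 0.22 (adjusted p = 0.285). The NPP call was lost without any 1 of its 4 libraries (0.86 to 1.23) and the total call against H without H replicate 2 (1.25 to 1.79), while the other 3 held without each library in turn.

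SESN1, the other sestrin gene of the group, was not called higher with any treatment in either line. In MCF10A total mRNA it stood at 13.1 and 13.9 CPM in N, 16.4 and 15.2 in H, 8.71 and 6.36 in NPP and 7.76 and 7.92 in HPP, so every library with PP242 lay below every library without it. The fall with PP242 in hypoxia passed the test (−1.01 ± 0.24, adjusted p = 0.0423), and that with HPP against N did not (−0.79 ± 0.24, adjusted p = 0.05004). The call was lost without any 1 of the 4 libraries (log2FC −1.09 to −0.96, adjusted p = 0.191 to 0.250) and under RLE scaling, no filter, all gene classes and a fit of only the libraries compared. In polysomal mRNA the same comparison gave −0.66 ± 0.24 (adjusted p = 0.137). PP242 in normoxia gave −0.84 ± 0.24 (adjusted p = 0.208) in total mRNA, or −0.64 without NPP replicate 2. In MDA-MB-231, SESN1 stayed between 7.51 and 9.76 CPM in all 16 libraries, and its log2FC lay between −0.22 and 0.12 over the 8 comparisons, with 0 calls.

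BCL2L11 was low in MCF10A, with 1.36 to 4.95 CPM over 16 libraries and 0 calls in 8 comparisons. In MDA-MB-231 polysomal mRNA it stood at 13.1 and 14.2 CPM in N, 10.2 and 14.7 in H, 27.1 and 23.8 in NPP and 23.3 and 19.7 in HPP. All 4 libraries with PP242 lay above the 4 without it. The rise with PP242 passed in hypoxia (0.78 ± 0.24, adjusted p = 0.0478) and did not in normoxia (0.90 ± 0.24, adjusted p = 0.0778). The call was lost without any 1 of the 4 libraries (log2FC 0.57 to 1.09) and with all gene classes. Reads of MIR4435-2HG cannot be told apart by strand from those of BCL2L11 in the shared exon bases.

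Translation was examined as Te, the log2FC in polysomal mRNA minus that in total mRNA, with a test of the interaction between treatment and fraction. Of the genes tested, 0 were called in either line for any of the 3 treatments by edgeR, and 0 by DESeq2. In MCF10A the background of called genes was 0.0% in hypoxia, 0.0% with PP242 and 0.0% with both, and 0 members had an unadjusted p under 0.05. In MDA-MB-231 it was 0.0148%, 0.34% and 0.696%, and 1 member, PIK3IP1, had an unadjusted p under 0.05 in each. The Te of PIK3IP1 was 1.35 ± 0.56 (adjusted p = 1.000) with hypoxia, 1.16 ± 0.52 (adjusted p = 1.000) with PP242 and 1.35 ± 0.51 (adjusted p = 1.000) with both. These 3 values share the normoxic libraries, in which PIK3IP1 was lower in polysomal than in total mRNA (log2FC −1.03 ± 0.40, adjusted p = 0.106). The Te of CCNG2 was 0.21 ± 0.63 with hypoxia, 0.55 ± 0.63 with PP242 and 0.29 ± 0.63 with both in MCF10A. The value with PP242 rested on the NPP total libraries, and was −0.02 without replicate 2 and 1.49 without replicate 1. That with both ranged from −0.10 to 0.84 over the omissions. The corresponding values for MDA-MB-231 were −0.04 ± 0.34, 0.28 ± 0.34 and 0.01 ± 0.34. In MCF10A with both treatments the Te of KLF6 was 0.73 ± 0.69 (adjusted p = 0.977), that of BCL6 0.65 ± 0.48 (adjusted p = 0.977) and that of FOXO1 0.72 ± 0.57 (adjusted p = 0.977). The standard errors of Te reached 1.01 for MCF10A and 0.64 for MDA-MB-231, so small changes could not be detected. With the title number as a culture block 0 members were called for Te either.

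**Figure D5:**
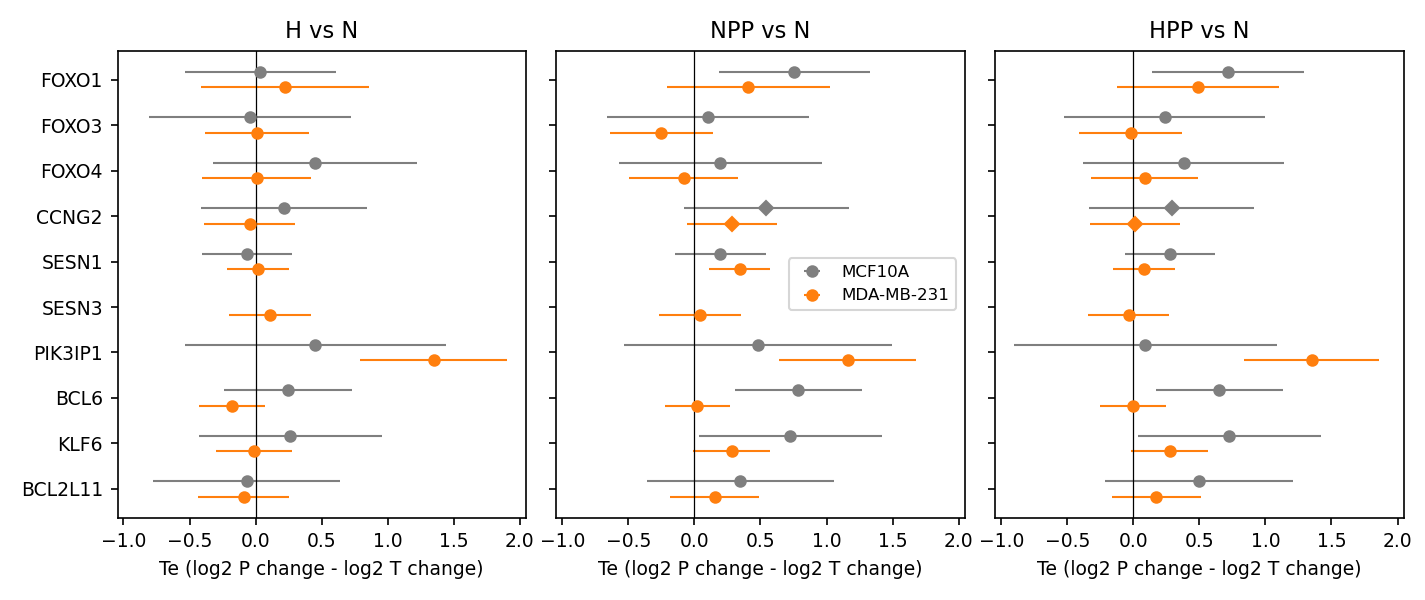
Te, the polysomal minus the total log2 fold change against normoxia, with its standard error for each gene in MCF10A (grey) and MDA-MB-231 (orange), for hypoxia, PP242 and both, from 16 libraries per line. Diamonds mark CCNG2 where it was not tested. No point passed an adjusted p of 0.05, and PIK3IP1 in MDA-MB-231 lies farthest to the right, at 1.35 in hypoxia.

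In normoxia alone, the polysomal level of a gene was also compared with its total level. Here 0 of 9 members were called in MCF10A (0 at an unadjusted p under 0.05, 0 by DESeq2), beside 0.0% of all genes, and 0 of 10 in MDA-MB-231 (1 at an unadjusted p under 0.05, 0 by DESeq2), beside 13.1%. CCNG2 gave −0.48 ± 0.44 (adjusted p = 0.737) in MCF10A and −0.51 ± 0.24 (adjusted p = 0.180) in MDA-MB-231. With the title number that total and polysomal libraries share as a culture block, CCNG2 was called lower in polysomal mRNA of MDA-MB-231 (−0.52 ± 0.16, adjusted p = 0.0481), and 0 members were called in MCF10A.

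Whether a treatment acted differently in the lines was tested as the log2FC in MDA-MB-231 minus that in MCF10A, in the fit of 32 libraries. BCL6 alone passed, with hypoxia and PP242 in polysomal mRNA (−1.55 ± 0.40, adjusted p = 0.0305), where 1.44% of all genes were called lower in MDA-MB-231. Its rise was 5.41-fold in MCF10A and 1.87-fold in MDA-MB-231. The call was lost without 6 of the 8 libraries compared, held without MCF10A normoxic replicate 2 or HPP replicate 1, was lost with all gene classes, and ranged from −2.06 to −1.19. In the other 5 comparisons 0 members were called by edgeR. The background was 0.266% of genes with hypoxia in total and 0.329% in polysomal mRNA (1 member at an unadjusted p under 0.05 in each), 0.056% and 0.126% with PP242 (2 and 3 members), and 3.31% with both in total mRNA (2 members). DESeq2 called 1 member in these 5, PIK3IP1 with hypoxia in total mRNA, where edgeR gave −3.47 ± 0.87 (adjusted p = 0.119). With PP242, BCL2L11 gave 1.46 ± 0.58 (adjusted p = 1.000) in total mRNA, or 1.18 without MCF10A NPP replicate 2, and SESN1 gave 0.80 ± 0.29 (adjusted p = 0.823) in polysomal mRNA. CCNG2 was not tested here with PP242. Its differences with hypoxia alone were −0.67 ± 0.51 (adjusted p = 0.974) in total and −1.06 ± 0.51 (adjusted p = 0.771) in polysomal mRNA.

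The genes that control FOXO proteins formed a list of 33, all of which were tested in both lines. In polysomal mRNA with hypoxia and PP242, 1 rose and 3 fell in MCF10A, and 2 rose and 4 fell in MDA-MB-231. Over all genes 10.2% rose and 11.9% fell in MCF10A, and 9.71% rose and 9.73% fell in MDA-MB-231. These counts are near or under the shares of all genes. SKP2, a ubiquitin ligase subunit that targets FOXO1, fell in both (log2FC −1.41 and −1.21), as did PIK3R3, a regulatory subunit of PI3-kinase (−2.01 and −0.93). In MCF10A, MAPKAP1, a subunit of mTOR complex 2, fell (−0.86) and SGK1, a kinase related to AKT, rose (0.91). In MDA-MB-231 the deacetylase SIRT1 (0.98) and the PI3-kinase catalytic subunit PIK3CA (0.67) rose, and the deubiquitinase USP7 (−0.51) and the methyltransferase PRMT1 (−0.46) fell. SGK3 fell in MDA-MB-231 with hypoxia in polysomal mRNA (−0.71) and with both treatments in total mRNA (−0.57). With PP242 in normoxia the list gave 1 fall in each fraction of MCF10A (PIK3R3 in both), beside 0.305% of all genes in total and 0.351% in polysomal mRNA, and 1 rise in MDA-MB-231 polysomal mRNA (SIRT1), beside 0.762%, and the median of the list with both treatments in polysomal mRNA was −0.32 for MCF10A and −0.02 for MDA-MB-231.

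A further 43 genes known as FOXO targets were listed by function, and the filter kept 37 of them for MCF10A and 39 for MDA-MB-231. With hypoxia and PP242, 12 of 37 rose and 1 fell in total and 13 rose and 1 fell in polysomal mRNA of MCF10A, and 12 of 39 rose and 0 fell in total and 16 rose and 2 fell in polysomal mRNA of MDA-MB-231. The shares that rose were 35.1% and 41.0% in polysomal mRNA, beside 10.2% and 9.71% of all genes. This list, too, was chosen with earlier results of these libraries known, so its shares are a description and not a test. In total mRNA they were 32.4% and 30.8%, beside 7.43% and 6.31%. Over all genes 7.47% and 6.91% fell in total and 11.9% and 9.73% in polysomal mRNA. In polysomal mRNA with PP242 in normoxia, 4 rose in MCF10A, beside 0.472% of all genes, and 5 rose and 1 fell in MDA-MB-231, beside 0.762% and 1.19%. With hypoxia alone, in polysomal mRNA, 4 rose in MCF10A, beside 1.33%, and 5 in MDA-MB-231, beside 1.78%. In total mRNA with PP242 in normoxia fewer were called. There 1 rose in MCF10A, beside 0.343% of all genes, and 3 in MDA-MB-231, beside 0.377%. Several of the genes that rose are also known targets of hypoxia-inducible factor, among them BNIP3 and MXI1. C10orf10 was not left out of the MCF10A counts. It lay near the floor of 3 counts in normoxic polysomal mRNA there, so a rise of it is not read as a result.

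Of the targets that act on the cell cycle and on DNA repair, with both treatments in polysomal mRNA, the MYC antagonist MXI1 rose in both lines (log2FC 3.22 in MCF10A and 1.61 in MDA-MB-231), as did the stress gene GADD45A (1.54 and 1.56). The D-type cyclin CCND1, which FOXO factors are known to repress, fell in both (−1.65 and −0.68). GADD45B (0.95) and the cyclin-dependent kinase inhibitors CDKN1A (0.78) and CDKN1B (0.71) rose in MDA-MB-231, and CDKN1A rose in MCF10A with PP242 in hypoxia (1.10). Among receptors and insulin signalling genes, TRIB1 rose in both lines (2.46 and 0.69), the insulin receptor substrate IRS2 in MCF10A (2.79) and the pyruvate dehydrogenase kinase PDK4 in MDA-MB-231 (1.74), where IGFBP1 rose with PP242 in hypoxia (0.84). Of the cell death genes, BNIP3 rose in both lines (1.95 and 2.49), with hypoxia alone as well (2.41 and 2.75), and BBC3, which encodes the BH3-only protein PUMA, rose in MDA-MB-231 with PP242 in normoxia (1.71) and with both (1.54).

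The redox, autophagy and atrophy genes include TXNIP, an inhibitor of thioredoxin and of glucose uptake. In MCF10A polysomal mRNA TXNIP stood at 43.2 and 70.7 CPM in N, 351 and 538 CPM in H, 763 and 827 CPM in NPP and 1414 and 2901 CPM in HPP, without overlap between the 4 conditions. In MDA-MB-231 it stood at 173 and 193 CPM in N, 199 and 212 CPM in H, 356 and 394 CPM in NPP and 438 and 608 CPM in HPP. Its log2FC with both treatments was 5.24 and 1.52. C10orf10, which also rises in hypoxia, went from 0.0698 and 0.140 CPM in N to 10.6 and 17 CPM in H in MCF10A polysomal mRNA, and from 1.22 and 1.42 CPM to 3.6 and 5.03 CPM in MDA-MB-231. The autophagy gene GABARAPL1 rose with both treatments in each line (2.30 and 1.41). SEPP1 (1.71) and catalase, CAT (0.67), rose in MCF10A polysomal mRNA, MAP1LC3B in MCF10A total mRNA (1.12). In MDA-MB-231 polysomal mRNA PINK1 (0.95), ATG14 (0.62), MAP1LC3B (0.61) and ULK1 (0.75) rose, SESN2, the third sestrin gene, fell (−0.67), and the ubiquitin ligase gene FBXO32 rose with PP242 in hypoxia (1.44) and in normoxia (1.22). Among the transcription factor genes of the list, CITED2 (3.03), KLF2 (2.48) and KLF4 (1.41) rose in MCF10A with both treatments, KLF2 rose in MDA-MB-231 with PP242 in hypoxia (0.93), and IL7R, a receptor gene in the same list, rose there in total mRNA with both treatments (0.56). The log2FC with both treatments in polysomal mRNA was called lower in MDA-MB-231 than in MCF10A for 5 of 40 genes of the list and higher for 0, beside 1.44% of all genes called lower. The 5 include C10orf10, whose normoxic MCF10A libraries, at 0.0698 and 0.140 CPM, lay near the floor of 3 counts (0.0601 to 0.126 CPM). Its call is therefore not read as a result. The difference was −3.76 for TXNIP, −2.81 for CITED2, which was not called in MDA-MB-231, −1.80 for TRIB1 and −1.62 for MXI1. No exact difference is given for C10orf10.

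Relatives of the 10 genes that were not counted among them formed a list of 8, of which 7 were tested in MCF10A and 6 in MDA-MB-231. FOXO6, the remaining FOXO gene, did not exceed 0.914 CPM in MCF10A and 3.91 CPM in MDA-MB-231, where it rose with both treatments in polysomal mRNA (log2FC 0.89). CCNG1, the paralogue of CCNG2, fell in MCF10A polysomal mRNA with both treatments (−0.74), and was not called in MDA-MB-231. The BH3-only gene PMAIP1 rose in MCF10A with PP242 in hypoxia (1.55) and in MDA-MB-231 with both (0.54). KLF5 rose in MDA-MB-231 (0.60), BIK fell in MCF10A (−2.56) and BMF fell in MDA-MB-231 with hypoxia (−1.37). With both treatments, 10.2% of all MCF10A genes were called higher and 11.9% lower in polysomal mRNA. The MDA-MB-231 shares were 9.71% and 9.73%. PP242 in hypoxia gave 1.33% higher in total and 2.63% in polysomal mRNA of MCF10A. Hypoxia alone gave 0.289% lower in total and 0.511% in polysomal mRNA of MDA-MB-231. No adjusted p or leave-one-out check is given for these relatives, so their calls are a description.

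Over all 32 libraries, with log2 CPM centred within each line, the pattern of CCNG2 was compared with that of 12373 protein-coding genes tested in both lines. The libraries share treatments, fractions and depth, so the correlations are a description. The highest Pearson r was that of PNRC1 (0.946), followed by CREBRF (0.927), RNF44 (0.898), SWT1 (0.895) and SEMA6C (0.892). KLF6 had rank 7 (0.877), BCL6 rank 78 (0.789) and FOXO4 rank 432 (0.660). FOXO1 (0.554), PIK3IP1 (0.525), FOXO3 (0.418) and BCL2L11 (0.185) followed, and SESN1 had a negative r (−0.433). For some members the pooled r describes neither line. That of BCL2L11 was −0.317 over the 16 MCF10A libraries and 0.798 over the 16 MDA-MB-231 ones, that of PIK3IP1 0.333 and 0.835, and that of SESN1 −0.600 and −0.175 in the same order. SESN3, which was not tested in MCF10A, was left out.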

How the data were processed

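The authors aligned reads with STAR (v2.5.1b) to GRCh38 with GENCODE v24 and deposited estimated counts per gene from RSEM (v1.2.28), as whole numbers, 1 table per line. The submitters' processing notes name GRCh37 instead, so no coordinate was taken from the tables. Libraries were made with an unstranded poly(A) kit. Protein-coding genes, 97.4% to 99.2% of a library's counts, were filtered with filterByExpr, scaled with TMM and fitted with the quasi-likelihood F test of edgeR 4.0.16 (R 4.3.3), with 8 groups per line or 16 groups over both, and p-values were adjusted by Benjamini-Hochberg. Errors of log2FC are standard errors. Loci and lengths came from GENCODE v44. DESeq2 1.42.0, RLE scaling, no filter, all gene classes, replicate blocks, smaller fits and leaving out each library were alternatives. The 10 genes and all gene lists were chosen with earlier results of these data known. All 10 genes, list genes called by smallest adjusted p, label markers and the 5 genes most like CCNG2 were named. Scripts were tested on simulated data. Sites in FOXO proteins were not analysed here. Some genes of the regulator list are not reported here by name.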

Additional observations from a re-analysis of the deposited data

Results flagged for a closer look

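The polysomal rise of BCL6 with hypoxia and PP242 differed between the lines. The log2FC in MDA-MB-231 minus that in MCF10A was −1.55 ± 0.40 (adjusted p = 0.0305, edgeR fit of 32 libraries), and both HPP libraries lay above both normoxic libraries in each line. It kept this sign without each of the 8 libraries in turn, at −2.06 to −1.19, and kept the call without 2 of them. The call was lost when all gene classes were tested.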

How the results depend on the processing

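Counts are members called in each comparison, and for each alternative setting those that moved by over 1.5 times are given. DESeq2 in place of edgeR gave 2 for H against N in MCF10A T, 2 for H against N in MCF10A P, 2 for NPP against N in MCF10A T, 2 for NPP against N in MCF10A P, 4 for HPP against N in MCF10A T, 4 for HPP against N in MCF10A P, 1 for H against N in MDA-MB-231 T, 3 for NPP against N in MDA-MB-231 T, 5 for NPP against N in MDA-MB-231 P and 1 for difference between lines, hypoxia, total mRNA. RLE scaling gave 0 for H against N in MCF10A P, 1 for HPP against H in MCF10A T and 1 for NPP against N in MDA-MB-231 T. Without the low-count filter there were 1 for H against N in MCF10A T, 2 for NPP against N in MCF10A P, 1 for HPP against H in MCF10A T, 4 for HPP against N in MCF10A P, 2 for H against N in MDA-MB-231 T, 1 for H against N in MDA-MB-231 P, 3 for NPP against N in MDA-MB-231 T, 5 for NPP against N in MDA-MB-231 P and 8 for HPP against N in MDA-MB-231 P. With all gene classes there were 0 for H against N in MCF10A P, 0 for HPP against H in MCF10A T and 0 for difference between lines, hypoxia plus PP242, polysomal mRNA. With the replicate number as a block there were 2 for H against N in MCF10A P, 1 for H against N in MDA-MB-231 T, 2 for NPP against N in MDA-MB-231 T and 5 for NPP against N in MDA-MB-231 P. With the replicate block within each fraction there were 2 for H against N in MCF10A T, 2 for H against N in MCF10A P, 1 for NPP against N in MCF10A T, 2 for NPP against N in MCF10A P, 6 for HPP against N in MCF10A P, 1 for H against N in MDA-MB-231 T, 2 for NPP against N in MDA-MB-231 T, 5 for NPP against N in MDA-MB-231 P and 1 for normoxia, polysomal versus total mRNA, MDA-MB-231. A block for the culture gave 1 for normoxia, polysomal versus total mRNA, MDA-MB-231. A length offset, added after seeing the data, gave 2 for H against N in MCF10A P, 1 for NPP against N in MCF10A T, 2 for NPP against N in MCF10A P and 2 for NPP against N in MDA-MB-231 T. A fit of only the libraries compared gave 2 for H against N in MCF10A T, 0 for H against N in MCF10A P, 0 for HPP against H in MCF10A T, 0 for HPP against H in MCF10A P and 1 for NPP against N in MDA-MB-231 P. Leaving out 1 library in turn gave counts of 0 to 2 for HPP against H in MCF10A P (reported 2), 3 to 3 for HPP against H in MDA-MB-231 P (reported 4), 0 to 0 for HPP against H in MCF10A T (reported 2), 0 to 3 for HPP against H in MDA-MB-231 T (reported 3), 0 to 0 for NPP against N in MCF10A P (reported 1), 0 to 2 for NPP against N in MDA-MB-231 P (reported 3), 0 to 1 for difference between lines, PP242 in normoxia, total mRNA (reported 0), 0 to 1 for difference between lines, hypoxia plus PP242, polysomal mRNA (reported 1), 2 to 3 for HPP against N in MCF10A P (reported 2), 4 to 5 for HPP against N in MDA-MB-231 P (reported 5), 0 to 3 for HPP against N in MCF10A T (reported 2), 2 to 3 for HPP against N in MDA-MB-231 T (reported 4), 0 to 0 for H against N in MCF10A P (reported 1), 3 to 4 for normoxia, MDA-MB-231 versus MCF10A, total mRNA (reported 5, SESN3 included), and 0 in every other comparison. The difference of CCNG2 between the lines turned from 0.53 to -0.076 with PP242 in total mRNA without MCF10A NPP replicate 2 (up to 1.49 without other libraries), and from −0.10 to 0.42 with both treatments without MCF10A HPP replicate 1, against -0.60 without HPP replicate 2. The cause of these changes was not tested.

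Replicates share a number across groups, and no label says that it marks a shared batch or day. Titles join each total library to 1 polysomal library, and the deviations of these pairs correlated over 0.1 in 1 of 4 conditions in MCF10A and 3 of 4 in MDA-MB-231. In MCF10A they correlated under −0.1 in 2 of 4 conditions, with a range of −0.250 to 0.214. Deviations of same-numbered MCF10A total libraries correlated at 0.283 to 0.778 in 6 of 6 pairs of groups, polysomal ones over 0.1 in 3 of 6, and in MDA-MB-231 in 4 of 6 for each fraction. With the replicate block within each fraction, the 6 MCF10A polysomal calls for HPP against N include FOXO1, FOXO3 and FOXO4, none of which passed without it. With either replicate block FOXO1 passed in MDA-MB-231 polysomal mRNA for HPP against H and against N, and FOXO4 for HPP against H in polysomal and against N in total mRNA. With 2 libraries a group the smallest 2-sided permutation p is 0.333, so none is given.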
